A study of Homo sapiens with 12 samples.

Results

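The 10 genes described here encode the alpha and beta tubulins, the proteins that pair to build microtubules and that depend on the cytosolic chaperonin to fold. They are the alpha genes TUBA1A, TUBA1B, TUBA1C and TUBA4A and the beta genes TUBB, TUBB2A, TUBB2B, TUBB3, TUBB4B and TUBB6. They were taken by gene name from the raw count table, which lists 50868 genes, and all 10 were found there and passed the low-count filter. RNA came from MG63, an established human osteosarcoma cell line, in 12 libraries that form 4 groups of 3. In one experiment the cells were given vehicle or 1 µM anticarin-beta and were harvested at 18 hours. In the other they were transfected with Allstar control siRNA or with CCT4-specific siRNA and were harvested at 2 days. The series design names anticarin-beta and knockdown of CCT4, a chaperonin subunit, as the treatments compared. All 12 libraries came from 1 cell line. The labels do not say whether the replicates were separate cultures, so the p-values measure the spread between these samples only, which may be technical.

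Tubulin polypeptides emerge from the ribosome unable to pair. The prefoldin complex hands them to the chaperonin, which folds them in its cavity, and the tubulin folding cofactors then join 1 alpha to 1 beta chain. Cells also adjust their tubulin mRNAs to the supply of free tubulin: when unpolymerized dimers accumulate, TTC5 binds the start of the nascent tubulin chain on the ribosome, SCAPER and the CCR4-NOT deadenylase are recruited, and the mRNA is degraded. The isotypes differ mainly in their tails and in the tissues where they are made. TUBB, TUBB4B, TUBA1B and TUBA1C are widely expressed, whereas TUBB3 is best known from neurons.

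The start of the coding sequence is shown because it encodes the start of the nascent chain that is bound in this autoregulation. It also shows how far the bases of the members are alike at that point. The sequences are the first 24 coding bases of the principal transcript of each gene in GENCODE release 29, 5′ to 3′, with the first 12 bases in capitals.
TUBA1A: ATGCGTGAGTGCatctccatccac
TUBA1B: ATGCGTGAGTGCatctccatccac
TUBA1C: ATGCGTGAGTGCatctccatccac
TUBA4A: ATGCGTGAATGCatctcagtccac
TUBB: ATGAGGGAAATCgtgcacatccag
TUBB2A: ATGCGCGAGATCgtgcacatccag
TUBB2B: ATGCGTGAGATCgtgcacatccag
TUBB3: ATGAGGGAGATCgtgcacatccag
TUBB4B: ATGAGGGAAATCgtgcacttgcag
TUBB6: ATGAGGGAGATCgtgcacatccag

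TUBA1A, TUBA1B and TUBA1C were identical over these 24 bases, and the start of TUBA4A was its own. TUBB and TUBB4B had the same first 12 bases, as did TUBB3 and TUBB6. Within the alpha genes, and within the beta genes, the differences in the first 12 bases do not change the encoded residues. Among 19998 genes with an annotated coding start, ATGCGTGAGTGC opened only the coding sequences of TUBA1A, TUBA1B and TUBA1C. ATGAGGGAAATC opened those of TUBB, TUBB4B and TUBB8P12, and ATGAGGGAGATC those of TUBB3, TUBB6 and TUBB8. The remaining 3 starts each occurred in 1 gene. Over the whole coding sequence, TUBB2A and TUBB2B were 98.2% identical, TUBA1A and TUBA1B 97.2%, TUBA1B and TUBA1C 96.8%, and TUBA1A and TUBA1C 95.9%.

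That likeness limits how well reads can be assigned. Of all 50-base stretches in its transcripts, TUBB2A shared 58.7% with another gene, TUBB2B 47.9%, TUBB3 33.4%, TUBA1B 25.6%, TUBA1A 22.1%, TUBA1C 15.6% and TUBB 14.2%. The share was 7.45% for TUBB4B, 2.64% for TUBA4A and 0.446% for TUBB6. TUBB2A and TUBB2B shared mostly with each other, TUBB with the pseudogene TUBBP1, and TUBB3 with a readthrough gene whose exons cover 35.8% of its own. The counting rule for reads with several possible origins is not given. The values of TUBA1A, TUBA1B, TUBA1C, TUBB, TUBB2A, TUBB2B and TUBB3 are therefore uncertain as to which copy the reads came from. The 38 tubulin pseudogenes in the table held 0.295% to 0.867% as many counts as the 10 members.

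On GRCh38, the alpha genes TUBA1B (chr12:49127782-49131397, minus strand), TUBA1A (chr12:49184796-49189324, minus strand) and TUBA1C (chr12:49188736-49274603, plus strand) are neighbours, and TUBA4A is at chr2:219249711-219278170 on the minus strand. The beta genes TUBB2A (chr6:3153669-3157526) and TUBB2B (chr6:3224261-3231730) also lie near each other, both on the minus strand. TUBB is at chr6:30720201-30725426, TUBB3 at chr16:89921392-89938761, TUBB4B at chr9:137241213-137243707 and TUBB6 at chr18:12307669-12344320, all on the plus strand. Exons of 8 members overlap those of a gene on the opposite strand, TUBB2A and TUBB3 being the exceptions. The largest such overlaps were 36.6% of TUBA1B exon bases with an antisense RNA, 20.3% of TUBB6 with AFG3L2, 16.0% of TUBB with an antisense RNA, 15.4% of TUBA4A with STK16, 14.4% of TUBA1C with an antisense RNA and 14.3% of TUBA1A with TUBA1C. The libraries were made with a stranded kit, but whether the counting used strand is not given, so the reads of such partners may be merged.

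Library totals ran from 13393750 to 17492095 counts. Levels are given in CPM, the counts relative to the TMM-scaled library size. Relative to the unscaled library totals, 3 counts in 1 library correspond to 0.172 to 0.224 CPM. The lowest member level, that of TUBB2B with control siRNA, rested on 43 to 81 counts per library. In bulk RNA, fewer cells and less RNA per cell cannot be told apart, and every level is relative to the rest of the library. Osteoblast-lineage markers summed to 6520 to 8090 CPM with vehicle, 11270 to 11703 CPM with anticarin-beta, 1582 to 1624 CPM with control siRNA and 2012 to 2154 CPM with CCT4 siRNA, although SPP1, SP7, IBSP and POSTN were too low to test. Most of each sum came from COL1A1, COL1A2 and SPARC, with vehicle means of 3777, 1607 and 2156 CPM. ALPL went the other way between vehicle and control siRNA, with means of 9.24 and 18.3 CPM. The summed levels of the blood, endothelial and neural markers reached at most 93.7 CPM in any library, with CD3E, HBB and DCX at 0 counts throughout, and those of 6 epithelial markers ran from 112 to 170.4 CPM. Most of the epithelial sum came from KRT8 and KRT18, with vehicle means of 47.2 and 94.2 CPM, while EPCAM, CDH1 and ESRP1 were too low to test. The part of these shifts in the tubulin values was not tested. CCT4 mRNA, the target of the siRNA, did not fall in the libraries that carry the CCT4 siRNA label: it stood at 201, 199.6 and 216 CPM against 186, 160.2 and 185 CPM with control siRNA (log2 fold change 0.22 ± 0.09, SE). That difference was not called by edgeR's quasi-likelihood test with Benjamini-Hochberg adjustment (adjusted p = 0.129), so the siRNA groups are named below by their labels.

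With anticarin-beta, the beta tubulin mRNAs TUBB and TUBB6 fell 3.64-fold and 2.95-fold, while the alpha tubulin mRNA TUBA1C rose 1.45-fold. Smaller changes were called for TUBA1A and TUBB4B, which fell, and for TUBA4A and TUBB2A, which rose. TUBA1B, TUBB2B and TUBB3 were not called. In all, 3 of 10 members rose and 4 fell at an adjusted p under 0.05, against 34.9% of the 17717 genes tested called higher and 38.0% called lower. The share of members called was thus close to the 73.0% of all genes called either way. The median log2 fold change was −0.23 over the members and −0.06 over all genes tested. Groups did not overlap for 7 of 10 members, and for 74.6% of all genes tested. All adjusted p-values below are from edgeR's quasi-likelihood test with Benjamini-Hochberg adjustment over all genes tested.

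TUBB, the class I beta tubulin made in most cells, was at 1660.4, 1573 and 1509 CPM in the vehicle libraries and at 431, 429 and 443 CPM in those given anticarin-beta. Every treated library lay far below every vehicle library, and the treated libraries differed little among themselves. The log2 fold change was −1.86 ± 0.06 (SE, n = 3 each; adjusted p = 2.99e-11), with a 95% interval from −1.98 to −1.74. It was called lower under every alternative scaling, filter, tool and omitted library.

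TUBB6, the class V beta tubulin, was at 52.5, 95.5 and 85.7 CPM with vehicle and at 25.8, 28.4 and 25.1 CPM with anticarin-beta. The vehicle libraries were spread, with the first the lowest, but all lay above the treated ones. Its log2 fold change was −1.56 ± 0.25 (SE; adjusted p = 1.01e-04), and this call too held under every alternative tried. AFG3L2, which overlaps 20.3% of the exon bases of TUBB6 on the opposite strand, held 1528, 1170 and 1291 counts with vehicle and 399, 387 and 434 with anticarin-beta, lower like TUBB6. Whether its reads entered the TUBB6 counts was not tested.

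TUBB4B, a class IV beta tubulin, moved far less than TUBB. It was at 329, 258 and 254 CPM with vehicle and at 249.8, 229.8 and 243 CPM with anticarin-beta. The groups just failed to overlap, and the first vehicle library stood above the rest. The log2 fold change was −0.22 ± 0.09 (SE; adjusted p = 0.0411). Without that vehicle library it was −0.10 (adjusted p = 0.135), and with RLE scaling −0.16 (adjusted p = 0.132), and neither value passed the threshold. The call was also lost with DESeq2, a stricter filter or each experiment alone. It was lost too without mitochondrially encoded genes and when any single anticarin-beta library was left out.

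TUBB2A and TUBB2B, the near-identical class II pair, lay slightly higher with anticarin-beta. TUBB2A was at 32.1, 37.6 and 34.4 CPM with vehicle and at 47.8, 40.9 and 41.8 CPM with the compound, without overlap (log2 fold change 0.33 ± 0.11, SE; adjusted p = 0.0165). Its call was lost without the first vehicle library (0.26, adjusted p = 0.0686) or the first anticarin-beta library (0.25, adjusted p = 0.0798). It was also lost with upper-quartile scaling (0.21, adjusted p = 0.103) and with library totals (−0.090). TUBB2B, at 5.43, 8.26 and 7.65 CPM against 10.3, 7.67 and 8.87 CPM, overlapped between the groups and was not called (0.33 ± 0.24, SE; adjusted p = 0.230).

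TUBB3, the class III beta tubulin, varied more between replicates than between groups. It was at 182, 149 and 151 CPM with vehicle and at 119, 172 and 48.2 CPM with anticarin-beta, a 3.57-fold range within the treated group. The readthrough gene that shares its exons held 0, 419 and 0 counts in the vehicle libraries and 664, 0 and 214 counts in the treated ones. The groups overlapped and the difference was not called (log2 fold change −0.51 ± 0.54, SE; adjusted p = 0.415).

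Among the alpha genes, TUBA1C stood at 599.8, 546 and 481 CPM with vehicle and at 768, 778 and 808 CPM with anticarin-beta. All treated libraries exceeded all vehicle libraries, and the log2 fold change was 0.53 ± 0.07 (SE; adjusted p = 2.45e-05). TUBA1A, an alpha tubulin abundant in neurons, was at 192, 228 and 227 CPM and at 172, 183 and 177 CPM, again without overlap but in the opposite direction (−0.28 ± 0.09, SE; adjusted p = 0.0136). TUBA1A and TUBA1C share their first 24 coding bases, and the cause of their different directions was not tested.

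TUBA1B, the most abundant alpha tubulin mRNA per length here, was at 1579.7, 1249 and 1196 CPM with vehicle and at 1107, 1106 and 1211 CPM with anticarin-beta. One treated library lay above the lowest vehicle library, so the groups overlapped. Its log2 fold change was −0.23 ± 0.11 (SE; adjusted p = 0.0721), and the 95% interval ran from −0.47 to 0.00. TUBA1B was called lower without the second vehicle library (−0.31), the third (−0.32) or the first control siRNA library (−0.24). It was also called lower with upper-quartile scaling (−0.35), library totals (−0.65) or a looser filter (−0.26). TUBA4A, whose gene does not encode the terminal tyrosine of other alpha tubulins, was at 17.7, 17.1 and 12.5 CPM and at 20.1, 19.6 and 20.0 CPM. The treated libraries were all higher (0.34 ± 0.14 SE, adjusted p = 0.0444 by edgeR's quasi-likelihood test). Leaving out the third vehicle library gave 0.18 (adjusted p = 0.202). The call was also lost with upper-quartile scaling, library totals, a looser filter, a replicate block or each experiment alone. It was lost too without the second vehicle library, the first control siRNA library, or any single anticarin-beta or CCT4 siRNA library.

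The scaling bears on these small changes. TMM set the anticarin-beta libraries at factors of 0.804 to 0.810 and the vehicle libraries at 1.07 to 1.10. With library totals alone the median of all genes moved from −0.06 to −0.48, and 4292 genes were called higher and 8959 lower in place of 6186 and 6740. On that scale 5 members were called lower (TUBA1A, TUBA1B, TUBB, TUBB4B and TUBB6) and none higher by edgeR's quasi-likelihood test. TUBA1C then had a log2 fold change of 0.11, TUBA4A of −0.081, TUBB2A of −0.090 and TUBB2B of −0.080.

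**Figure D1:**
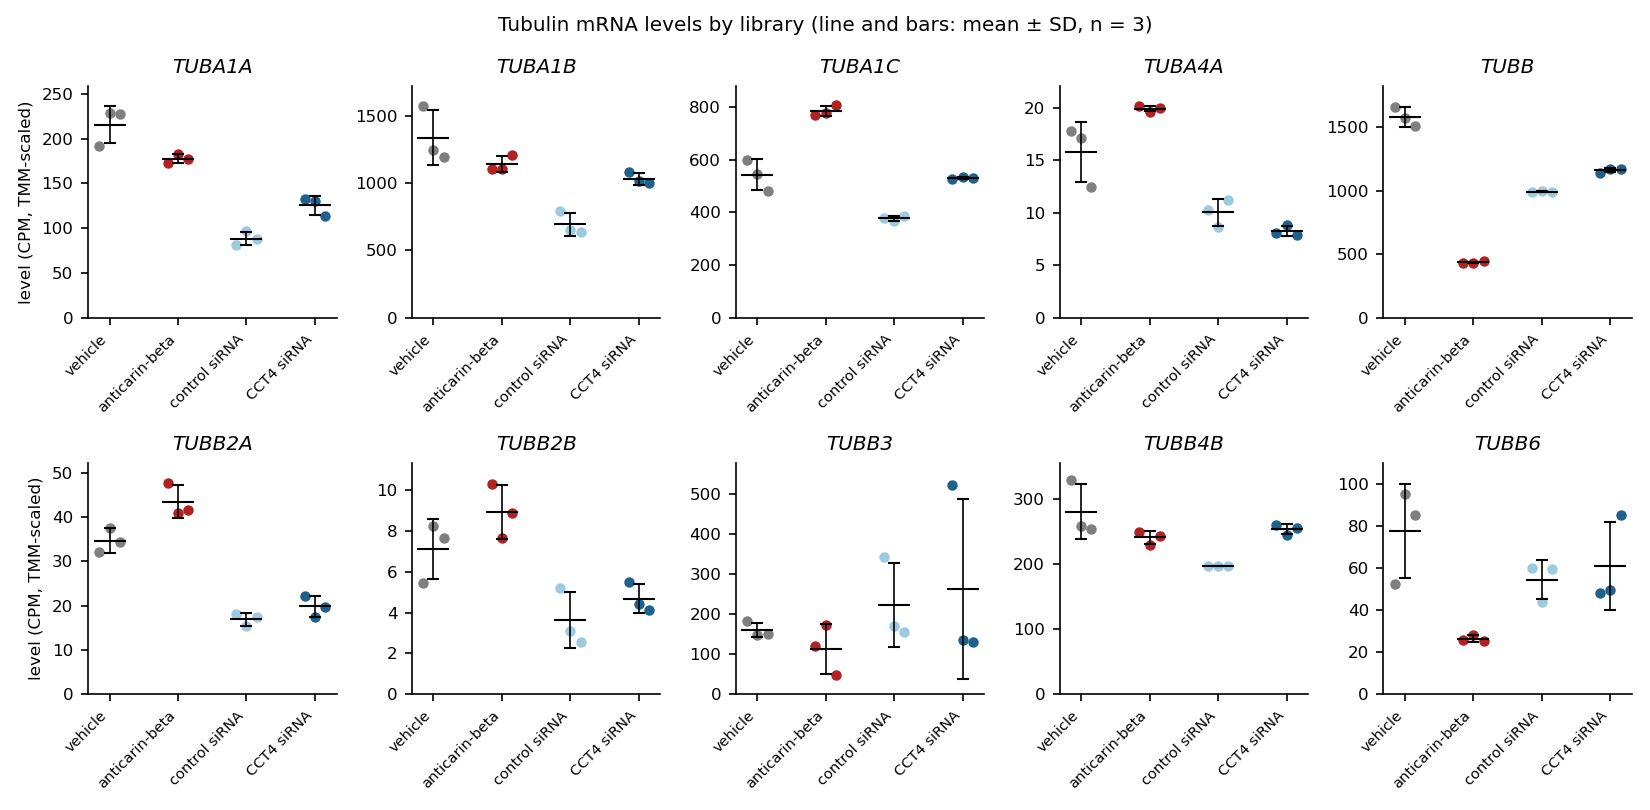
Level of each tubulin mRNA in CPM (TMM-scaled, linear axes starting at 0) in the 4 groups. Coloured points are single libraries, and black lines with bars are the mean ± SD (n = 3). TUBB sits at 429 to 443 CPM in the anticarin-beta libraries and at 987 CPM or more in all others, whereas TUBB3 varies widely within groups.

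In the libraries labelled CCT4 siRNA, the tubulin mRNAs TUBA1A, TUBA1B, TUBA1C, TUBB and TUBB4B rose relative to control siRNA, each by less than 1.5-fold. These 5 calls of 10 stand against 10.7% of the 17717 genes tested called higher and 19.7% called either way. Lower calls numbered 0 of 10 by edgeR's quasi-likelihood test, 0 at an unadjusted p under 0.05 and 0 by DESeq2 or limma-voom, against 9.04% of all genes tested. The median log2 fold change was 0.30 over the members and 0.01 over all genes tested. Groups did not overlap for 5 of 10 members, and for 41.8% of all genes tested.

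The TUBA1 genes rose by similar amounts. TUBA1B was at 795, 650.2 and 638 CPM with control siRNA and at 1086, 1014 and 999.5 CPM with CCT4 siRNA, with a log2 fold change of 0.57 ± 0.11 (SE, n = 3 each; adjusted p = 0.00381). TUBA1A was at 81.0, 96.3 and 87.5 CPM and at 133, 131 and 113 CPM (0.51 ± 0.09, SE; adjusted p = 0.00262). TUBA1C was at 376, 368 and 387 CPM and at 526, 534 and 529 CPM (0.49 ± 0.07, SE; adjusted p = 8.10e-04). For each of these genes every CCT4 siRNA library exceeded every control library, and the call held under every alternative tried. TUBA4A lay the other way, at 10.2, 8.62 and 11.2 CPM against 8.04, 8.79 and 7.84 CPM, with overlap and no call (−0.29 ± 0.15, SE; adjusted p = 0.199).

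Among the beta genes, TUBB was at 987, 998 and 994 CPM with control siRNA and at 1141, 1174 and 1168 CPM with CCT4 siRNA. The replicates lay within a few percent of each other and the groups did not overlap (log2 fold change 0.23 ± 0.05, SE; adjusted p = 0.0122). TUBB4B was at 197 CPM in all 3 control libraries and at 261, 245 and 255 CPM with CCT4 siRNA (0.36 ± 0.09, SE; adjusted p = 0.0147). The call of TUBB4B was lost without the first CCT4 siRNA library (0.34, adjusted p = 0.0515). With library totals alone both genes lost their calls, at 0.10 for TUBB and 0.23 for TUBB4B, and the TUBA1 genes kept theirs.

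The other beta genes were not called. TUBB2A was at 18.2, 15.3 and 17.4 CPM against 22.2, 17.5 and 19.8 CPM (0.22 ± 0.11, SE; adjusted p = 0.191), and TUBB2B at 5.19, 3.11 and 2.56 CPM against 5.49, 4.43 and 4.11 CPM (0.37 ± 0.26, SE; adjusted p = 0.353). Both pairs of groups overlapped. TUBB6 was at 59.9, 43.7 and 59.8 CPM against 48.0, 49.7 and 85.4 CPM (0.16 ± 0.24, SE; adjusted p = 0.691). Its sign turned, to −0.16, without the third CCT4 siRNA library.

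TUBB3 was at 344, 169 and 154 CPM with control siRNA and at 522, 134 and 130.1 CPM with CCT4 siRNA. The first library of each group stood far above the other two, and these were also the only siRNA libraries with counts for the readthrough gene, 191 and 392. The log2 fold change was 0.24 ± 0.54 (SE; adjusted p = 0.805), and it turned to −0.75 without the first CCT4 siRNA library.

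**Figure D2:**
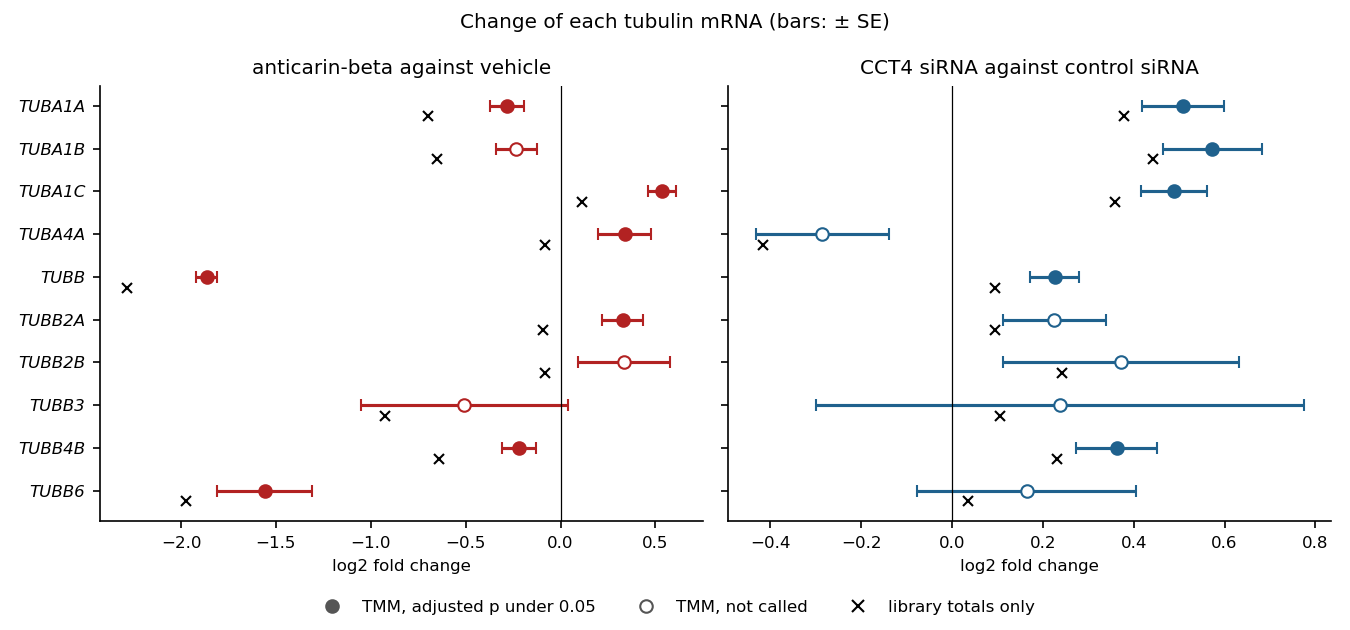
Log2 fold change of each member with anticarin-beta against vehicle (left) and with CCT4 siRNA against control siRNA (right), on axes of different range. Circles with bars are the TMM values ± SE (n = 3 each), filled where the adjusted p is under 0.05, and crosses are the values with library totals only. TUBB and TUBB6 lie at −1.86 and −1.56 on the left, and no member lies beyond 0.57 on the right.

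The experiments share no library, and the difference between their responses was tested directly. It was called for 6 of 10 members: 5 were lower and 1 higher with anticarin-beta than with CCT4 siRNA, against 32.4% and 27.5% of all genes tested, and 59.9% of all genes were called either way. The difference was largest for TUBB, at −2.09 ± 0.08 on the log2 scale (SE; adjusted p = 1.06e-09), and for TUBB6, at −1.72 ± 0.35 (SE; adjusted p = 8.97e-04). It was −0.81 ± 0.15 for TUBA1B (SE; adjusted p = 6.37e-04), −0.79 ± 0.13 for TUBA1A (SE; adjusted p = 1.72e-04) and −0.58 ± 0.13 for TUBB4B (SE; adjusted p = 0.00153). These 5 calls held under every alternative tried.

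TUBA1C, called higher in both experiments under TMM scaling, showed a difference of 0.04 ± 0.10 (SE; adjusted p = 0.734), with a 95% interval from −0.18 to 0.27. TUBA4A was the member called higher with anticarin-beta (0.62 ± 0.20, SE; adjusted p = 0.0180), a call lost without the third control siRNA library (0.53, adjusted p = 0.0527). TUBB2A, TUBB2B and TUBB3 were not called, with intervals from −0.24 to 0.44, from −0.80 to 0.73 and from −2.40 to 0.92. The last 2 intervals leave room for differences of more than 1.5-fold in either direction.

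To compare genes with each other, levels were divided by exon length and summed as CPM per kilobase, as a description without a test. Summed alpha tubulin was 559 ± 64.7 with vehicle and 546 ± 21.4 with anticarin-beta (SD, n = 3 each), and the ranges of the libraries overlapped. Summed beta tubulin was 682 ± 39.5 with vehicle and 305 ± 10.8 with anticarin-beta, without overlap. The ratio of alpha to beta, which does not depend on the scaling of the libraries, was 0.784 to 0.871 in the vehicle libraries and 1.70 to 1.95 in the anticarin-beta libraries (means 0.818 ± 0.047 and 1.79 ± 0.137, SD). In the siRNA experiment both sums were higher with CCT4 siRNA: alpha was 442 ± 14.7 against 304 ± 22.5 with control siRNA, and beta 553 ± 47.7 against 464 ± 24.7. The ratio was 0.753 to 0.844 with CCT4 siRNA and 0.646 to 0.670 with control siRNA. All of these ratios lay under 1, so that beta exceeded alpha in the 9 libraries without anticarin-beta, and alpha exceeded beta in the 3 with it.

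The make-up of the beta sum changed with the compound. TUBB gave 69.0% ± 0.764 of summed beta with vehicle and 42.5% ± 2.27 with anticarin-beta (SD, n = 3 each). TUBB4B gave 19.4% ± 1.83 and 37.5% ± 2.16, and TUBB2A with TUBB2B 3.44% ± 0.473 and 9.61% ± 0.792. With control siRNA and CCT4 siRNA, TUBB gave 63.8% ± 3.59 and 62.8% ± 6.07, and the share from TUBB3 ran from 5.52% to 19.4%. The make-up of the alpha sum moved less: TUBA1B gave 66.9% with vehicle, 58.5% with anticarin-beta, 63.7% with control siRNA and 65.4% with CCT4 siRNA, and TUBA1C 21.0%, 31.1%, 26.9% and 25.9%. As a share of all counts, the 10 members took 0.423% to 0.510% with vehicle, 0.239% to 0.243% with anticarin-beta, 0.285% to 0.321% with control siRNA and 0.339% to 0.382% with CCT4 siRNA.

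**Figure D3:**
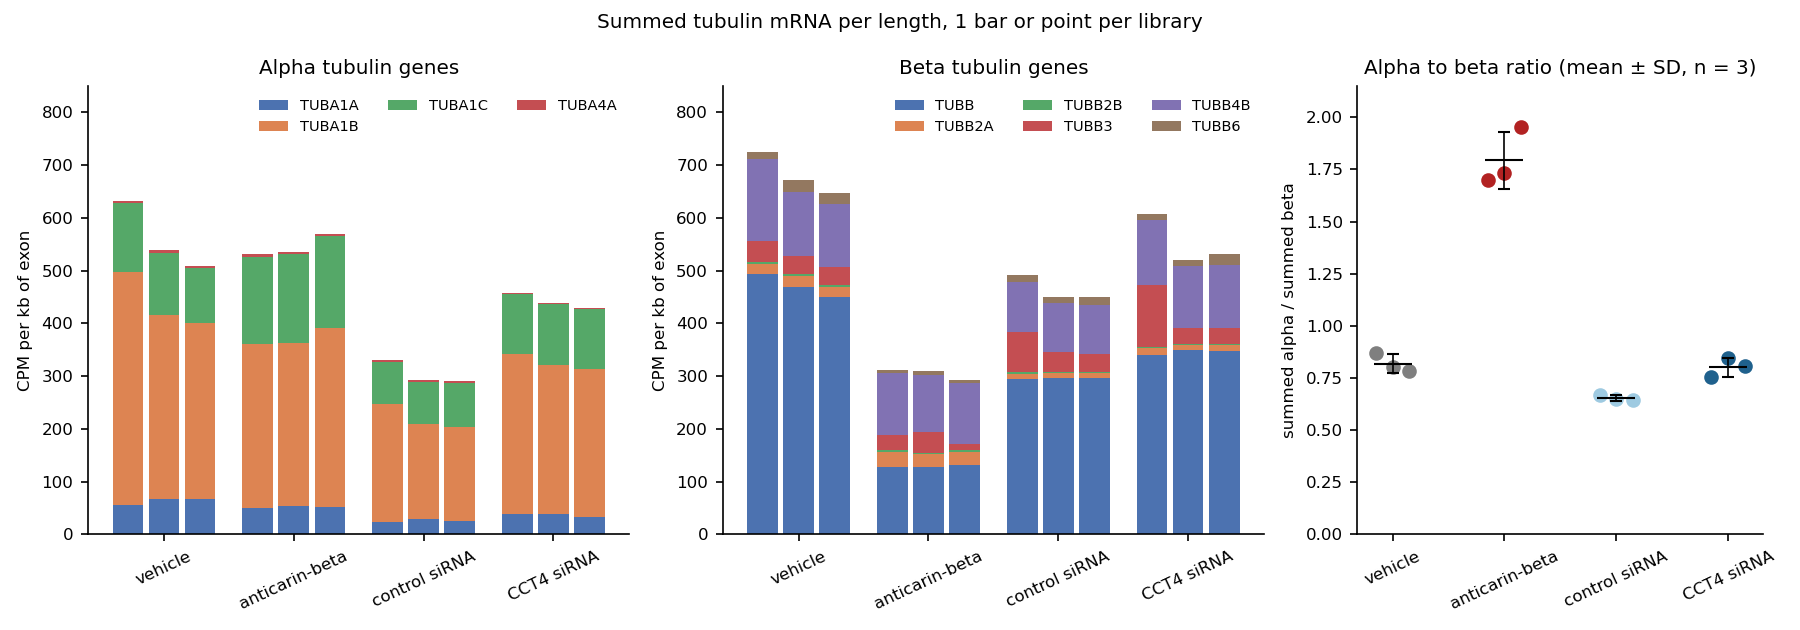
Summed alpha (left) and beta (middle) tubulin mRNA in CPM per kilobase of exon, 1 stacked bar per library and 1 colour per gene, and the ratio of the sums (right; points are libraries, lines with bars the mean ± SD, n = 3). The ratio lies at 1.70 to 1.95 in the anticarin-beta libraries and under 1 in all others, and the TUBB segment of the beta bars is shortest there.

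Across the 4 groups, the mean level was highest with vehicle for 5 members (TUBA1A, TUBA1B, TUBB, TUBB4B and TUBB6), highest with anticarin-beta for 4 (TUBA1C, TUBA4A, TUBB2A and TUBB2B) and highest with CCT4 siRNA for TUBB3. Of the 10 members, 9 had a lower mean with control siRNA than with vehicle, TUBB3 being the exception. Transfection and time of collection both differ between those groups and cannot be told apart, so no test was made. TUBB ran from vehicle through CCT4 siRNA and control siRNA down to anticarin-beta, with no overlap between neighbours. TUBA1A ran from vehicle through anticarin-beta and CCT4 siRNA to control siRNA, also with no overlap. TUBA1B followed the order of TUBA1A, but its vehicle and anticarin-beta levels overlapped. TUBA1C ran from anticarin-beta to control siRNA, with vehicle and CCT4 siRNA overlapping between them. TUBB4B ran from vehicle through CCT4 siRNA and anticarin-beta to control siRNA, where CCT4 siRNA overlapped both of its neighbours. TUBB6 followed the order of TUBB, with CCT4 siRNA overlapping vehicle and control siRNA. TUBA4A was lowest with CCT4 siRNA, which overlapped control siRNA. TUBB2A overlapped only between the siRNA groups, and TUBB2B and TUBB3 overlapped between all neighbours.

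The genes most like TUBB and TUBA1B in pattern were ranked by Pearson's r of log2 CPM over the 12 libraries, among 9838 genes that averaged 10 CPM or more. The points share libraries, groups and depth, so r is a description. For TUBB, the top of the ranking held RRM2 (0.996), a ribonucleotide reductase subunit, TELO2 (0.996), a partner of the kinases of the mTOR family, SNX17 (0.996), a sorting nexin, ZWINT (0.996), a kinetochore protein, and IARS2 (0.995), the mitochondrial isoleucyl-tRNA synthetase. For TUBA1B it held TAF9B (0.965), a subunit of transcription complexes, ORMDL2 (0.958), a regulator of sphingolipid synthesis, AC004057.1 (0.950), NAA38 (0.950), a subunit of an N-terminal acetyltransferase, and RPS4X (0.948), a ribosomal protein. Neither TUBB nor TUBA1B had another member at the top of its ranking. For TUBA1B, TUBB4B ranked 28 (0.914), TUBA1A ranked 113 (0.860) and TUBB ranked 4319 (0.08). For TUBB, TUBB6 ranked 1536 (0.877).

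Other alpha and beta tubulin genes reached at most 1.83 CPM in any library. Of 8 listed, TUBA3C, TUBA3E, TUBAL3 and TUBB8 were too low to test. TUBA8, with 42 counts over the vehicle libraries and 5 over the anticarin-beta libraries, was called lower with the compound (−2.37 ± 0.82, SE; adjusted p = 0.0190), a call lost without the second vehicle or the first anticarin-beta library. With CCT4 siRNA, 0 of the 4 tested were called by edgeR's quasi-likelihood test, by DESeq2 or by limma-voom, and 0 at an unadjusted p under 0.05. Of all genes tested, 19.7% were called either way by edgeR.

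Genes for the nucleation of microtubules are given beside the 34.9% of all genes tested that were called higher and the 38.0% called lower with anticarin-beta. Of the gamma, delta and epsilon tubulins, 3 of 4 fell and none rose, by edgeR, DESeq2 and limma-voom alike. TUBG1, the main gamma tubulin, fell 6.50-fold, with 87.5 ± 10.4 CPM in the vehicle and 13.5 ± 1.33 CPM in the treated libraries (SD; log2 −2.70, adjusted p = 4.23e-10), TUBG2 changed by −0.59, and TUBE1 by −0.50 in a call that did not hold under RLE scaling, with each experiment alone or in 4 of the omissions of a library. Of 9 genes of the gamma-tubulin ring complex, which seeds new microtubules, 5 fell and 1 rose. TUBGCP3 fell from 42.8 ± 5.56 to 3.14 ± 0.328 CPM (SD; −3.77, adjusted p = 7.67e-11), TUBGCP5 from 23.0 ± 2.10 to 1.19 ± 0.386 CPM (SD; −4.27, adjusted p = 6.61e-10) and TUBGCP2 from 89.8 ± 5.07 to 28.2 ± 3.34 CPM (SD; −1.67, adjusted p = 3.18e-09). With CCT4 siRNA none of the gamma, delta and epsilon tubulins was called by edgeR, DESeq2 or limma-voom, and 0 had an unadjusted p under 0.05. The share of all genes tested called either way there was 19.7% by edgeR. Of the ring complex MZT2A (0.54) and MZT1 (0.38) rose, where 10.7% of all genes tested were called higher. The call of MZT1 was lost when any siRNA library but the third control was left out. Lower calls in the ring complex numbered 0 by edgeR, 1 at an unadjusted p under 0.05, and 1 each by DESeq2 and limma-voom.

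The genes that act on tubulin between the chaperonin and the microtubule were mixed. Of 7 folding cofactors, 4 rose and 2 fell with anticarin-beta, where 34.9% of all genes tested were called higher and 38.0% lower. TBCD, which with TBCE assembles the dimer, fell from 60.9 ± 2.35 to 14.5 ± 1.54 CPM (SD; −2.07, adjusted p = 1.60e-09), TBCB, which handles alpha tubulin, changed by −0.78, and TBCEL, which destabilizes tubulin, rose by 0.92. With CCT4 siRNA 4 rose and 1 fell, where 10.7% of all genes tested were called higher and 9.04% lower. TBCA, which handles beta tubulin, rose by 0.48, and TBCC changed by −0.54. TBCB rose by 0.39 in a call that was lost without single siRNA libraries. Of the 9 chaperonin subunits, 7 fell and 2 rose with anticarin-beta by edgeR, with 5 lower by DESeq2 and 6 by limma-voom, where 38.0% of all genes tested were called lower. The subunits that fell included CCT6A (−1.92), CCT3 (−1.62) and CCT4 (−1.52). With CCT4 siRNA 3 rose: CCT2 (0.38), TCP1 (0.29) and CCT3 (0.28), where 10.7% of all genes tested were called higher. All 3 calls were lost with library totals. Lower calls numbered 0 by edgeR, DESeq2 and limma-voom, and 0 at an unadjusted p under 0.05, where 8 were higher. ACTB, an actin and a chaperonin client like tubulin, fell with anticarin-beta (−0.78 ± 0.14, SE; adjusted p = 2.83e-04), and ACTG1 was not called (0.16).

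Of 6 genes of tubulin mRNA autoregulation, 3 fell and 1 rose with anticarin-beta, where 38.0% of all genes tested were called lower and 34.9% higher. TTC5, the reader of the nascent chain, fell from 9.10 ± 0.893 to 3.29 ± 0.190 CPM (SD; −1.47, adjusted p = 9.27e-06). CNOT11, the subunit that links SCAPER to the deadenylase, fell from 43.9 ± 3.47 to 16.8 ± 0.625 CPM (SD; −1.39, adjusted p = 1.78e-08), and SCAPER changed by −0.64. With CCT4 siRNA CNOT11 alone was called (−0.30), where 19.7% of all genes tested were called either way. Its call did not hold under every omission of a library.

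Enzymes that modify tubulin were called lower in varying shares with the compound, against 38.0% of all genes tested called lower. In the tyrosination cycle, which removes and restores the last residue of alpha tubulin, 4 of 5 fell and none rose by edgeR, DESeq2 or limma-voom: the ligase TTL (−1.23) and the carboxypeptidases VASH1 (−2.41), VASH2 (−2.32) and MATCAP1 (−1.31), listed in the table as KIAA0895L. VASH2 was under 1 CPM on average in both groups. Of 12 tested genes of glutamylation and glycylation, 6 fell and 2 rose, with TTLL12 (−1.46), TTLL5 (−1.59) and TTLL1 (−4.32) the clearest by p. HDAC6, a tubulin deacetylase, fell (−1.12), and the other 2 acetylation genes, ATAT1 and SIRT2, were not called by edgeR, whereas DESeq2 called 1 gene of this list higher and 2 were lower at an unadjusted p under 0.05. With CCT4 siRNA SIRT2 (0.28) was the only call among all of these by edgeR, DESeq2 or limma-voom. Of all genes tested, 19.7% were called either way there by edgeR. The call of SIRT2 was lost under 4 alternatives other than omitted libraries. At an unadjusted p under 0.05, 1 tyrosination gene was higher and 2 glutamylation and glycylation genes were lower.

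Proteins that bind microtubules moved in both directions with anticarin-beta. They are given beside the 34.9% of all genes tested called higher and the 38.0% called lower. Of 13 microtubule-associated proteins tested, 8 rose and 4 fell: MTUS1 rose from 50.4 ± 3.26 to 422 ± 32.2 CPM (SD; 3.07, adjusted p = 4.62e-11), MAP7D3 rose by 0.87, and MAP1A fell from 17.3 ± 2.84 to 0.557 ± 0.292 CPM (SD; −4.96, adjusted p = 6.36e-09). All 11 plus-end proteins tested were called by edgeR, 6 higher and 5 lower, against 6 and 4 by DESeq2 and by limma-voom, among them MAPRE1 (1.25), MAPRE3 (1.18) and DCTN1 (−0.88). All 7 severing genes were called, 3 higher and 4 lower, where 73.0% of all genes tested were called either way: FIGN, a severing ATPase, rose from 4.71 ± 1.77 to 77.0 ± 0.733 CPM (SD; 4.02, adjusted p = 2.40e-09), and FIGNL1 changed by −3.27. The stathmins STMN1 and STMN3, which bind free dimers, were not called by edgeR, DESeq2 or limma-voom. With CCT4 siRNA none of the severing genes was called by these tools, with 1 higher and 1 lower at an unadjusted p under 0.05. By edgeR, 19.7% of all genes tested were called either way in that comparison. MAPRE1 (0.35) and MAP7D3 (−0.47) were called under every alternative tried, and STMN3 (0.28), MAP7D1 (0.22) and CLIP1 (−0.28) under only some of them.

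With library totals alone the anticarin-beta calls were 4292 higher and 8959 lower over all 17717 genes tested. The ring complex then had 0 higher and 7 lower, and the folding cofactors 2 and 3. The autoregulation genes had 0 and 5, and the chaperonin subunits 0 and 7. Less change was seen in the microtubule-associated proteins, at 8 and 5, and the tyrosination cycle, at 0 and 4 as before. The exons of TBCB, TBCEL, TTC5, VASH1, TTLL5, TCP1, DCTN1, MZT2A, STMN1 and TUBA8 overlap another gene on the same strand, and those of TUBG1, TUBE1, TUBGCP2, TBCD, CNOT11, TTLL1, MTUS1, FIGNL1, SIRT2, MAP7D1, CLIP1, MATCAP1 and CCT4 one on the opposite strand, so their values are uncertain in the same way as those of the tubulins.

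**Figure D4:**
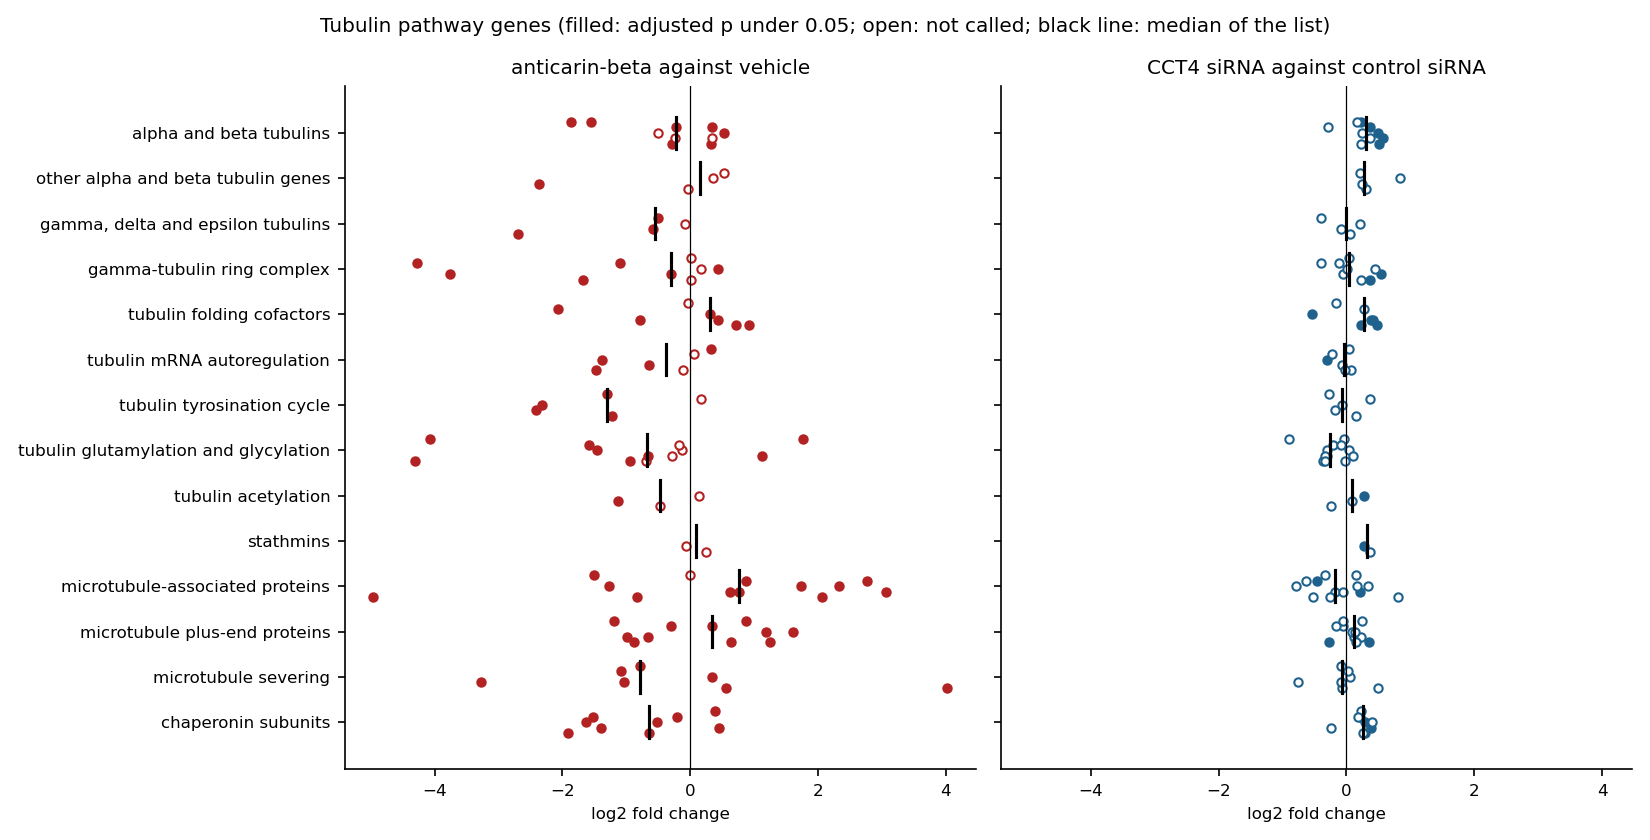
Log2 fold change of each tested gene of 14 lists of the tubulin pathway, with anticarin-beta against vehicle (left) and CCT4 siRNA against control siRNA (right). Filled points have an adjusted p under 0.05, open points do not, and black lines are the medians of the lists. The called genes run from −4.96 to 4.02 on the left and from −0.54 to 0.57 on the right, where some open points lie further out.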

How the data were processed

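The authors deposited raw read counts per gene, not normalized and not pooled, in 1 table for the 12 libraries. The library kit was a stranded TruSeq kit, per the labels' protocols. The tools named are STAR 2.5.2a, Subread and featureCounts 1.5.0, and the build is hg38, per the submitters' processing notes. Not given in the sources used here: annotation release, strand setting and handling of reads with several origins. Groups and replicate numbers came from the labels. Replicates differed by more than sampling noise (chi-square per degree of freedom 8.48 to 26.5), so each counted as 1 sample.

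Genes were tested with edgeR 4.0.16 (R 4.3.3): quasi-likelihood test, two-sided, TMM scaling, filterByExpr on the 4 groups, 1 mean per group over all 12 libraries (8 residual degrees of freedom), Benjamini-Hochberg adjustment over the 17717 genes tested, called under 0.05, prior count 0.125. The difference of the responses was a contrast in that fit. Intervals are at 95%. Floors of 3 counts cover counting error only. The tests were tried on simulated counts. Alternatives were other scalings, filters and tools (DESeq2 1.42.0, limma-voom 3.58.1), each experiment alone, a replicate block and the omission of each library, with TUBB3 plus its readthrough gene and sums without TUBB3 added after seeing the data.

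Coding starts, exon lengths, overlaps and positions came from GENCODE 29 on GRCh38, which holds 98.5% of the gene identifiers. All 149 symbols of the gene lists were found. All members are named, and from each list up to 3 called genes with the smallest p per comparison, or all called genes of lists of 5 or fewer. A gene that the rule takes is not reported here. ACTG1, ATAT1, STMN1, STMN3 with anticarin-beta, SIRT2 with anticarin-beta and the genes not tested were named outside this rule, after their values were seen. The members and lists were chosen with earlier results of these data known.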

Additional observations from a re-analysis of the deposited data

How the results depend on the processing

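With anticarin-beta, TUBB, TUBB6 and TUBA1A, and with CCT4 siRNA, TUBA1A, TUBA1B and TUBA1C, kept their calls under every alternative. The count of members called higher with anticarin-beta was 3 in the report, 0 with library totals, 1 with upper-quartile scaling and 1 to 3 when single libraries were left out. In the siRNA comparison library totals gave 902 genes higher, 2800 lower and 3 members higher. The omission of single libraries gave 2202 to 4026 genes called, 1182 to 2214 higher and 995 to 1812 lower. Members called higher in the difference of responses numbered 0 with library totals and 0 to 1 when single libraries were left out. Libraries with the same replicate number correlated at −0.03 to 0.03 in their deviations from the group means. Those with different numbers correlated at −0.015 to 0.031, so no strong pairing was seen. In the siRNA experiment, libraries with the same number gave 0.014 to 0.026 and the others −0.015 to −0.003. These values do not exclude a weak pairing there. A replicate block gave 1050 genes lower in the siRNA comparison and took the call of TUBB there (0.23, adjusted p = 0.0621) and that of TUBA4A with anticarin-beta (0.35, adjusted p = 0.0625). Signs turned as follows. With library totals anticarin-beta gave −0.081 for TUBA4A, −0.090 for TUBB2A and −0.080 for TUBB2B. When single libraries were left out, TUBB3 ran from −0.75 to 0.70 for the siRNA and from −1.21 to 0.24 for the difference, with −0.75 and 0.24 without the first CCT4 siRNA library. TUBB6 ran from −0.16 to 0.31 for the siRNA, turning without the third CCT4 siRNA library. The difference of TUBA1C was −0.046 with upper-quartile scaling, −0.24 with library totals and −0.047 to 0.11 without single libraries, negative without the third vehicle library, and that of TUBB2A −0.18 with library totals. The difference of TUBB2B was 0.032 with RLE scaling, 0.031 with DESeq2, 0.0035 without mitochondrially encoded genes and −0.40 to 0.15 without single libraries. The causes were not tested. With coding length in place of exon length, summed alpha was 1343, 1318, 733 and 1065 with vehicle, anticarin-beta, control siRNA and CCT4 siRNA, summed beta 1556, 619, 1055 and 1250.1, the ratio 2.13, 0.695 and 0.855 in the last 3 groups, and the TUBB share 76.1%, 52.6%, 70.7% and 69.9%. With library totals, summed alpha was 440.0 with anticarin-beta and 340.2 with control siRNA, and summed beta 735 with vehicle, 246 with anticarin-beta and 519 with control siRNA. Without TUBB2A and TUBB2B, summed beta was 275 and the ratio 1.99 with anticarin-beta, the ratio 0.671 with control siRNA, and the TUBB share 71.5% with vehicle and 47.0% with anticarin-beta. Without TUBB3, summed beta was 279 with anticarin-beta, 414 with control siRNA and 494 with CCT4 siRNA, the ratio 1.96, 0.735 and 0.895, and the TUBB share 72.9% with vehicle and 46.3%, 71.4% and 69.9% in those groups. With library totals 8 members were highest with vehicle and 1 with anticarin-beta. Depth limits TUBB2B and the rarer tubulin genes most.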

Other observations

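Counts of the pseudogene TUBBP1, which shares 12.4% of the 50-base stretches of TUBB, varied within groups far more than those of TUBB: 17, 287 and 429 counts with vehicle, 90, 91 and 5 with anticarin-beta, 7, 8 and 8 with control siRNA and 7, 245 and 7 with CCT4 siRNA. The readthrough gene over TUBB3 held counts in 5 of the 12 libraries and 0 in the other 7. Summed with TUBB3 it gave 66.1 to 174.6 CPM in the anticarin-beta libraries and 130.1 to 548 CPM in the CCT4 siRNA libraries.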
